A study of Mus musculus with 2 samples.

Results

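The genes described here are the matrix metalloproteases (Mmp), their tissue inhibitors (Timp) and the secreted ADAMTS proteases of the mouse. They were taken as every gene symbol made of Mmp, Timp or Adamts, a number and at most 1 further letter, which gave 45 of the 32285 genes counted: 22 Mmp, 4 Timp and 19 Adamts genes. Of these, 27 had at least 20 unique molecular identifiers (UMIs, each standing for 1 captured transcript) over both libraries, namely 14 Mmp, all 4 Timp and 9 Adamts genes, and they are described below. The other 18 (8 Mmp and 10 Adamts genes) fell short. Mmp1b, Mmp21 and Adamts20 had 0 UMIs, and the remaining 15 had between 2 and 17. Just outside the limit were Adamts8, with 17 UMIs in all, and Adamts19, with 15, and just inside it were Timp4, with 26, and Adamts6, with 39. Mmp20, which had 7 UMIs in the normal library and 0 in the polyp library, and Adamts13, with 8 and 1, had their UMIs mainly in the normal library.

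Each group was 1 library of droplet-based 3′ single-cell sequencing. The Lkb1_Het library held polyp cells pooled from 3 mice of genotype Lkb1flox/+;Myh11-Cre/ERT2, and the WT library, called normal below, cells of unaffected duodenum pooled from 3 mice whose genotype was Lkb1+/+;Myh11-Cre/ERT2. Both groups carried Cre/ERT2, a tamoxifen-dependent recombinase, under Myh11, a gene of smooth muscle and pericytes, so that only the floxed Lkb1 allele set the genotypes apart. The source label of both samples names duodenum, so the site of the polyps is not settled by the labels, and tamoxifen, age and sex are not stated in them. Cells of the 3 mice in a library cannot be told apart, so a library is 1 sample, no test was possible, and tissue, genotype and library preparation cannot be separated.

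Matrix metalloproteases are zinc enzymes made as inactive precursors that cut collagens, elastin, proteoglycans and many cell-surface and secreted proteins, and Timp proteins block them by binding the active site. ADAMTS enzymes are secreted relatives that mature fibrillar procollagen or cut the large proteoglycans aggrecan and versican. In the mouse small intestine the best known member is Mmp7, which Paneth cells use to activate alpha-defensins, whereas most other members are made by stromal cells and leukocytes.

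Of 9950 barcodes in the normal and 14327 in the polyp library, 3252 (32.7%) and 8460 (59.0%) passed the limits on UMIs, genes and mitochondrial share, with medians of 2431 and 2284.5 UMIs. The deposited totals were 39222238 and 63566462 UMIs, of which the Mmp, Timp and Adamts genes held 3065 and 7884. Kept barcodes were given a class by the marker UMIs that led them, and class names below stand for barcodes led by that marker list. Epithelium held 1366 normal and 5326 polyp barcodes, T and innate lymphoid cells 869 and 812, plasma cells 166 and 333, fibroblasts 31 and 267, and macrophages 25 and 353. In the fibroblast, macrophage and T classes all 12, 11 and 14 markers were at least 2-fold over the other kept barcodes of their library, and in epithelium 12 of 12 were in the normal and 10 of 12 in the polyp library. Fewer were in some normal classes: 6 of 9 in B cells, 5 of 10 in dendritic cells, 3 of 11 in mast cells and 1 of 8 in neutrophils. The same markers set the classes, so these counts are not a separate check of the class names. Within epithelium, enterocyte markers led 426 normal barcodes and 1 polyp barcode, gastric surface mucous markers 10 and 845, and Brunner and pyloric gland markers 21 and 1231, so the epithelia compared differ in their makeup. The normal library also held 574 barcodes led by pancreatic acinar markers. No doublet caller was run, but 20 normal and 179 polyp barcodes with markers of separate lineages were set aside as mixed. The libraries shared 44 barcode sequences, 10 of them kept in both. Classes also held marker UMIs of other cells, and free RNA, doublets and misassigned barcodes cannot be told apart here. For example, the gastric surface list summed to 19635 CPM (UMIs of a gene or list per 1000000 UMIs of the class) in polyp T and innate lymphoid cells, against 85237 CPM in polyp epithelium.

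Over all kept barcodes, 12 of the 27 members were higher in the polyp library, 3 were lower and 12 were neither. Higher or lower here means a ratio of at least 2-fold with a 95% counting interval clear of 1. Where a library had 0 UMIs the size was taken as met and the interval alone decided. By the same rule 15.7% of 15580 genes were higher and 14.2% were lower. The median gene differed between the libraries by 0.17 on the log2 scale, so ratios over kept barcodes are given relative to it, and the members' median log2 ratio was 0.98 on that relative scale. The 12 higher members were Mmp2, Mmp10, Mmp12, Mmp13, Mmp15, Mmp19, Mmp25, Timp1, Timp4, Adamts4, Adamts9 and Adamts15, and the 3 lower were Mmp7, Adamts5 and Mmp3, the last by a call that 6 other settings lost. Over all 45 members, the Mmp genes summed to 58.9 CPM in the normal and 59.2 CPM in the polyp library, the Timp genes to 42.9 and 53.6 CPM, and the Adamts genes to 13.7 and 20.8 CPM. The family totals thus lay closer together than single members did. Of the Mmp UMIs in kept barcodes, Mmp7 alone held 852 of 1290 in the normal and 84 of 3179 in the polyp library. The near-equal Mmp sums therefore do not describe the other Mmp genes. All intervals in brackets are at the 95% level and cover counting error only, not differences between mice, tissue pieces or preparations. UMIs come from transcript ends and are not scaled by gene length, so levels are compared between libraries and classes and not between genes.

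**Figure D1:**
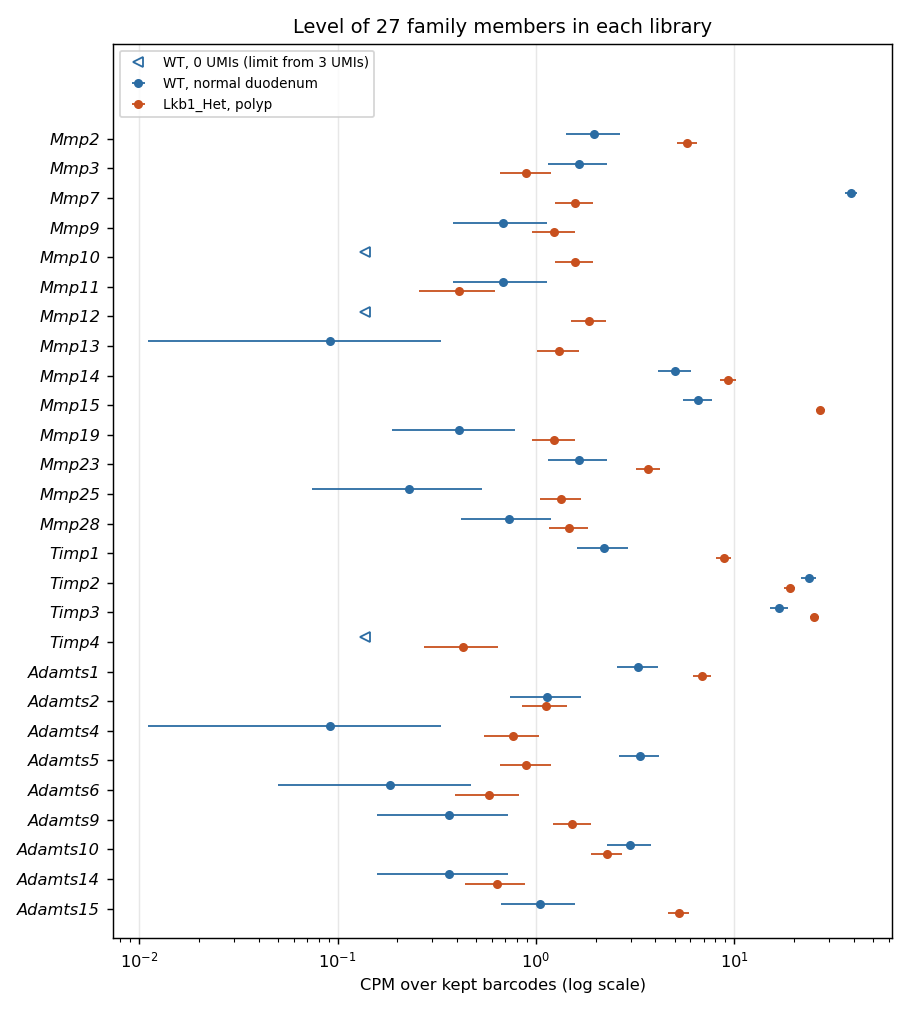
Level of the 27 members over kept barcodes in CPM (log axis), 1 point per library with its 95% counting interval, and open triangles at the limit that 3 UMIs set where a library had 0 UMIs. Mmp7 lay at 38.9 CPM in the normal and 1.57 CPM in the polyp library, whereas Mmp15 and Timp1 had separate intervals in the opposite direction.

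The members divided by the cells that held them. In both libraries Mmp2, Mmp3, Mmp19, Adamts1, Adamts2, Adamts4 and Adamts5 had the largest part of their classed UMIs in fibroblasts, Mmp9 and Mmp13 in macrophages, Adamts14 in plasma cells, Mmp25 and Adamts6 in T and innate lymphoid cells, and Mmp7, Mmp14, Mmp15, Mmp23, Mmp28, Timp3 and Adamts15 in epithelium. For Mmp13, Adamts4, Adamts6 and Mmp25 the normal side rests on 1, 2, 4 and 5 classed UMIs. These shares follow the size of a class as well as its level. Epithelium held 13530210 of 21894958 UMIs of normal kept barcodes and 42900919 of 53673997 of polyp ones. Mmp14, Mmp23, Timp2 and Timp3 stood at higher CPM in fibroblasts than in epithelium in both libraries. In fibroblasts lay 33 of 37 normal and 218 of 259 polyp UMIs of Mmp2, and in epithelium 124 of 134 and 1315 of 1387 UMIs of Mmp15. Mmp10, Mmp12 and Timp4 had classed UMIs in the polyp library alone. Mmp11 had 9 of 14 classed UMIs in normal T and innate lymphoid cells and 12 of 20 in polyp epithelium. The leading class also changed for Timp1, which had 32 of 41 normal UMIs in 4 mesothelial barcodes and 376 of 455 polyp UMIs in epithelium. It differed too for Timp2, with fibroblasts (195 of 482) leading in the normal and epithelium (315 of 913) in the polyp library. For Adamts10, T and innate lymphoid cells (34 of 60) led in the normal and fibroblasts (32 of 105) in the polyp library. Adamts9, with 4 classed normal UMIs, had 43 of its 63 polyp UMIs in epithelium.

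**Figure D2:**
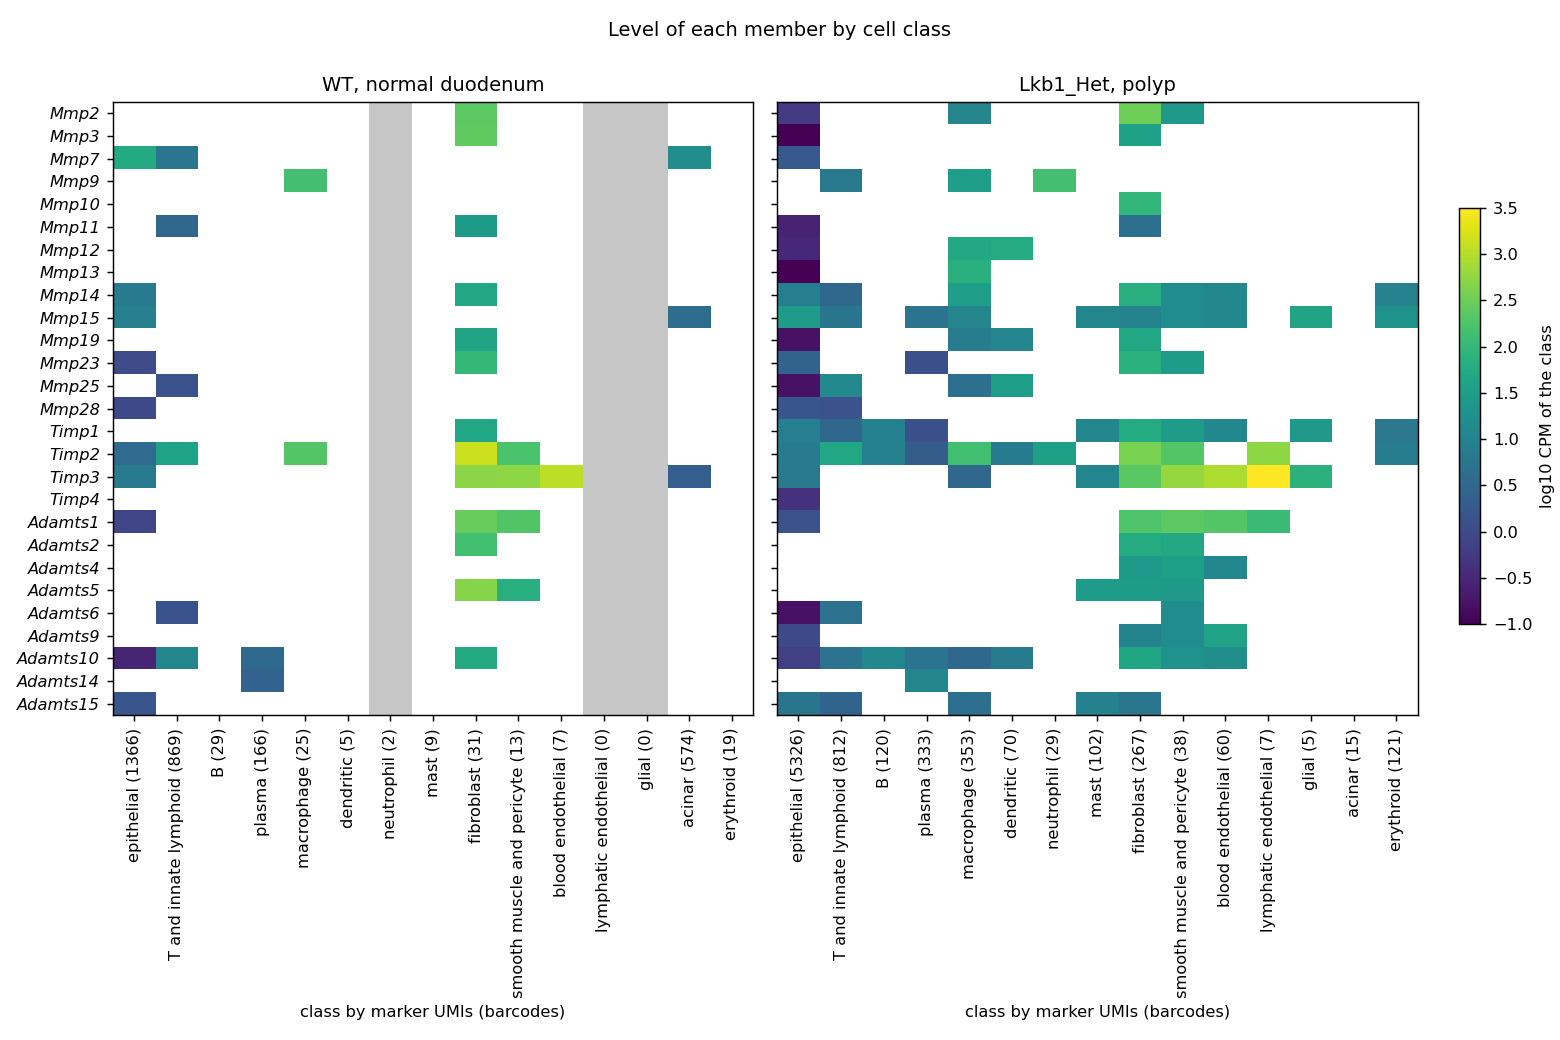
Level of each member by class as log10 CPM (colour), normal library left and polyp library right, with the number of barcodes in brackets. White marks under 3 UMIs, and grey marks classes with under 5 barcodes. Timp2 and Timp3 reach their brightest colours in stromal and endothelial columns, and Mmp10, Mmp12, Mmp13, Timp4, Adamts4 and Adamts9 have colour only in the polyp library.

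Among the proteases, 5 of the 14 Mmp genes lie in 1 cluster on chromosome 9 (GRCm38), in the order Mmp13 (chr9:7272514-7283331), Mmp12 (chr9:7344381-7369499), Mmp3 (chr9:7445822-7455975), Mmp10 (chr9:7502352-7510240) and Mmp7 (chr9:7692090-7699585), all on the plus strand. The cluster also holds Mmp8, Mmp27, Mmp20 and Mmp1b, which were below the UMI limit. Mmp1b, on the opposite strand, overlaps the end of Mmp12 and had 0 UMIs. RefSeq promoter windows (GRCm38.p6, from 250 bases before to 50 after a start) were found for 19 of the 27 members. The AP-1 letters TGAGTCA on either strand were present in 5 of these 19 (26.3%), and those 5 were the cluster genes. Over 27025 genes with windows of the same length the share was 5.95%, counting a gene where any of its windows matched. TATAAA was present in 6 members (31.6%), the same 5 and Adamts1, against 15.7% of genes. GGGCGG was present in 13 (68.4%), none of them a cluster gene, against 38.2%. TGACGTCA was in 0 of 19 (2.03% of genes), and CTTTGAT in 1, Mmp7 (4.29% of genes). These matches are letters in a window and were not tested as sites. The 100 bases before the start are shown for the 5 because they share these letters while their transcripts lay mainly in 3 different classes. Capitals mark the AP-1 letters (TGACTCA where they lie on the minus strand) and TATAAA (in Mmp12 TATAAA begins 5 bases after the start, outside the bases shown), and for Mmp12 and Mmp7, which have 2 listed starts each, the window with the match is given.
Mmp13, chr9:7272414-7272513, plus strand: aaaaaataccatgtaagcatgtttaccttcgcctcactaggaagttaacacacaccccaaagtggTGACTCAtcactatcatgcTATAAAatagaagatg
Mmp12, chr9:7347274-7347373, plus strand: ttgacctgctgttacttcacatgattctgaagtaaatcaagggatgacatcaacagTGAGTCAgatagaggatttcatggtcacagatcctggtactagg
Mmp3, chr9:7445722-7445821, plus strand: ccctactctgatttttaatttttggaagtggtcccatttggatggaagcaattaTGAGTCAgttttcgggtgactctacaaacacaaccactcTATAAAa
Mmp10, chr9:7502242-7502341, plus strand: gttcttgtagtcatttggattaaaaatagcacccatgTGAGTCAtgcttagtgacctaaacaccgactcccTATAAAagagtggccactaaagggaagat
Mmp7, chr9:7691990-7692089, plus strand: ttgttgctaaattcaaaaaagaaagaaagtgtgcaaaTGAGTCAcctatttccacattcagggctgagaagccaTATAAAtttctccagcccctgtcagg
The AP-1 letters began 63 bases before the start in Mmp10 and Mmp7, 46 in Mmp3, 44 in Mmp12 and 35 in Mmp13.

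Mmp7, the matrilysin of Paneth cells, had the largest fall of any member. Over kept barcodes it stood at 38.9 CPM (36.3 to 41.6) in the normal library, from 852 UMIs, and at 1.57 CPM (1.25 to 1.94) in the polyp library, from 84, which is 27.9-fold lower relative to the median gene. In epithelium the levels were 57.3 CPM (53.3 to 61.5) and 1.75 CPM (1.38 to 2.19), a 32.8-fold fall (25.8 to 42.1). Within the barcodes led by Paneth markers it was 1682 CPM (1520 to 1858) in 78 normal barcodes and 1064 CPM (795 to 1395) in 17 polyp barcodes, so the levels inside that class lay much closer than the levels of the epithelium. In both libraries a minority of these barcodes carried the level: 390 normal UMIs lay in 22 barcodes, 118 of them in 1, and 52 polyp UMIs in 5 barcodes, 28 of them in 1. In the 56 normal Paneth-led barcodes without Mmp7, Paneth markers made up 2.34% of UMIs. Those 56 had a median of 686.5 UMIs, against 5884.5 in the 22 with Mmp7. The part of depth in this split was not tested. Over all epithelial barcodes the Paneth marker list fell from 6307 to 418 CPM.

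Mmp7 was not limited to Paneth-led barcodes in the normal library. Goblet-led barcodes held 331 of its UMIs, 330 CPM (296 to 368), spread over 35 of 91 barcodes, against 5 UMIs in 712 polyp goblet-led barcodes, 0.735 CPM (0.239 to 1.71). Paneth markers made up 0.635% of UMIs in those 35 normal barcodes, 0.0960% in the 56 normal goblet-led barcodes without Mmp7, and 40.9% in the 22 Paneth-led barcodes with Mmp7. The 35 goblet-led barcodes with Mmp7 had a median of 16053 UMIs, and the 56 without it one of 2547.5. The parts of depth in this split and of Paneth-cell RNA in the goblet-led value were not tested. By comparison, Mmp7 stood at 5.82 CPM (3.39 to 9.32) in normal T and innate lymphoid cells, where the Paneth list summed to 883 CPM, and at 0.747 CPM in normal enterocyte-led barcodes. The goblet-led fall was 416-fold (177 to 1291) relative to that class's median gene, and goblet-led Timp1 was the other member past the limit there. In all, 12.9% of 10286 genes were higher and 9.25% lower in goblet-led barcodes.

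Mmp3 and Mmp10, stromelysins with broad matrix substrates, were both called in fibroblasts and went opposite ways there. Whether the same barcodes held both was not counted. Fibroblasts held 36 of 36 normal UMIs of Mmp3, and its level there was 255 CPM (179 to 353) in the normal and 37.7 CPM (24.6 to 55.2) in the polyp library, 6.27-fold lower relative to the median gene. In the normal library 20 of the 36 UMIs lay in 1 of 31 fibroblast barcodes and only 5 barcodes had any. Over kept barcodes Mmp3 was 1.64 CPM (1.15 to 2.28) and 0.894 CPM (0.659 to 1.19), a 2.06-fold relative fall. That call was lost under 6 other settings: a ratio of 0.954 without the barcode with most UMIs in each library, 0.675 over all barcodes, 0.657 with no mitochondrial limit, 0.544 not relative to the median gene, 0.512 with another total, and 1.24 with barcodes averaged. Mmp10 had 0 normal UMIs in any class and 84 polyp UMIs over kept barcodes, 1.57 CPM (1.25 to 1.94), at least 10.2-fold higher when the normal library is set to a floor of 3 UMIs. In polyp fibroblasts it had 67 UMIs and 97.0 CPM (75.2 to 123), at least 4.93-fold higher. Fibroblasts led by Bmp-ligand markers held 40 of these in 11 of 54 barcodes, 194 CPM (139 to 264), and interstitial fibroblasts 26 in 6 of 178 barcodes, 60.3 CPM (39.4 to 88.3).

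Mmp12, the macrophage elastase, and Mmp13, the main interstitial collagenase of the mouse, were polyp myeloid transcripts in these data. Mmp12 had 0 normal and 99 polyp UMIs over kept barcodes, 1.84 CPM (1.499 to 2.25), at least 11.99-fold higher. In macrophages it went from 0 UMIs in 25 normal barcodes, which allows up to 33.1 CPM, to 52.7 CPM (38.7 to 70.03) in 353 polyp barcodes, at least 1.59-fold higher, so a 2-fold difference is not shown there and the call rests on the interval being clear of 1. Polyp dendritic cells stood at 59.1 CPM (38.6 to 86.5), but 19 of their 26 Mmp12 UMIs lay in 1 of 70 barcodes. Mmp13 had 2 UMIs, 0.0913 CPM (0.0111 to 0.330), over normal kept barcodes and 70 UMIs, 1.30 CPM (1.02 to 1.65), over polyp ones, a relative ratio of 12.7 (3.39 to 107). Polyp macrophages held 64 of its 68 classed UMIs, at 71.7 CPM (55.2 to 91.6) against 11.0 CPM (0.279 to 61.5) from 1 normal UMI, a ratio of 6.501 (1.13 to 261). With barcodes averaged in place of summed, the Mmp13 macrophage call was lost (ratio 1.03).

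**Figure D3:**
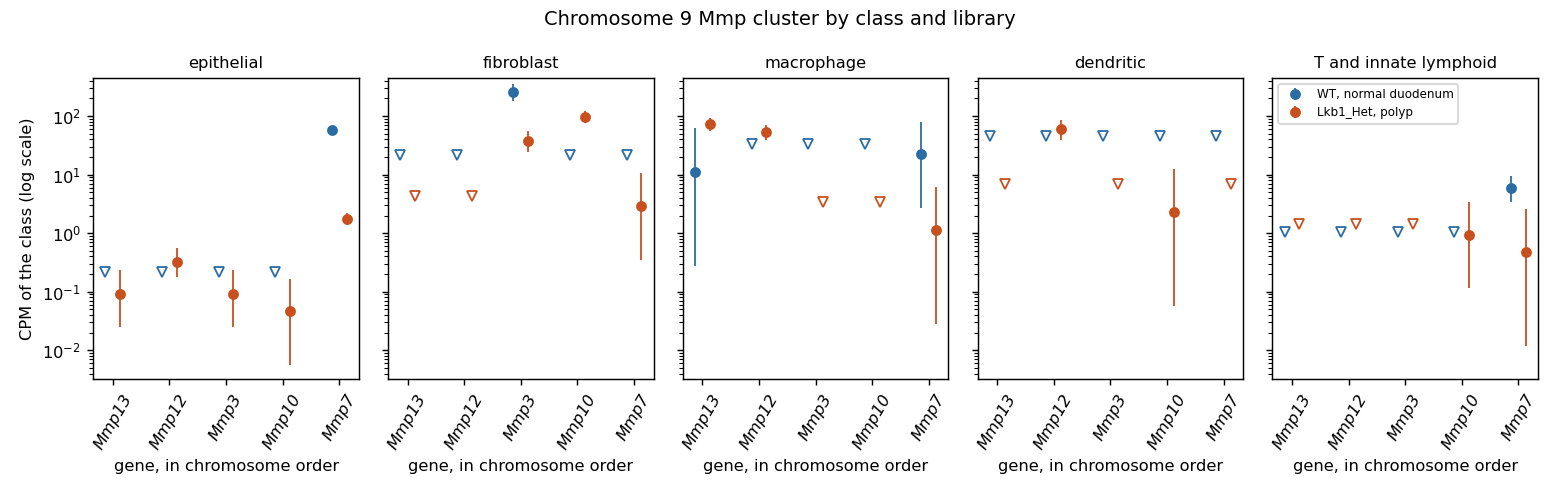
Level in CPM (log axis) of the 5 chromosome 9 Mmp genes in 5 classes, points with 95% counting intervals and open triangles at the 3-UMI limit where a library had 0 UMIs. Mmp3 and Mmp10 stand in fibroblasts, Mmp12 and Mmp13 in polyp macrophages, and Mmp7 in normal epithelium.

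The gelatinases Mmp2 and Mmp9, which cut denatured and basement membrane collagen, lay on chromosomes 8 and 2 and in different cells. Mmp2 was 1.96 CPM (1.42 to 2.65) over normal and 5.78 CPM (5.15 to 6.46) over polyp kept barcodes, 2.62-fold higher (1.90 to 3.69) relative to the median gene. Inside fibroblasts it was 234 CPM (161 to 328) and 316 CPM (275 to 360), a relative ratio of 1.46, which was not past 2-fold. The kept-barcode ratio of Mmp2 thus exceeded its ratio within the cells that held it, and fibroblast barcodes were 31 of 3252 normal and 267 of 8460 polyp barcodes. In epithelium Mmp2 rose from 1 UMI, 0.0739 CPM (0.00187 to 0.412), to 25 UMIs, 0.583 CPM (0.377 to 0.860), a ratio of 7.88 (1.29 to 324), while the fibroblast marker list rose in the same barcodes from 2.29 to 19.95 CPM. The part of stray fibroblast RNA in that epithelial value was not tested.

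Mmp9, made by neutrophils and macrophages, was 0.685 CPM (0.383 to 1.13) and 1.23 CPM (0.951 to 1.56) over kept barcodes, a relative ratio of 1.60 (0.903 to 3.02), so it was neither. In macrophages it was lower in the polyp library, 143 CPM (76.4 to 245) against 31.4 CPM (20.8 to 45.3), 4.57-fold (2.17 to 9.12). The normal value came from 13 UMIs in 7 of 25 barcodes. Polyp neutrophils, 29 barcodes, held 12 Mmp9 UMIs at 144 CPM (74.6 to 252), and the normal library had 2 neutrophil barcodes. Polyp T and innate lymphoid cells had 14 UMIs, 6.58 CPM (3.60 to 11.0).

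The membrane-type proteases Mmp14 and Mmp15 sit in the plasma membrane, and Mmp14 activates Mmp2. Both had most of their classed UMIs in epithelium. Mmp15 (chr8:95352268-95375080, plus strand) had the most UMIs of all 27 members over all deposited barcodes, 2018 against 1856 for Timp3, and Mmp14 lies at chr14:54431612-54445364. It stood at 6.53 CPM (5.50 to 7.69) over normal and 27.2 CPM (25.8 to 28.6) over polyp kept barcodes, 3.71-fold higher (3.12 to 4.43) relative to the median gene. In epithelium it was 9.16 CPM (7.62 to 10.9) and 30.7 CPM (29.0 to 32.4), 3.34-fold higher (2.78 to 4.05). Inside epithelial groups the ratios were mixed. Gastric surface mucous barcodes had 48.8 CPM (25.2 to 85.2) in 10 normal and 48.3 CPM (44.5 to 52.4) in 845 polyp barcodes, with too few normal barcodes to compare. Goblet-led barcodes had 26.9 CPM (17.7 to 39.2) and 23.2 CPM (19.7 to 27.1), a relative ratio of 0.930 (0.616 to 1.46). Crypt-led barcodes rose from 7.41 CPM (4.39 to 11.7) to 18.6 CPM (14.2 to 23.9), 2.51-fold (1.46 to 4.52), and barcodes led by no epithelial list rose from 7.20 CPM (4.66 to 10.6) to 23.8 CPM (19.6 to 28.6), 3.31-fold (2.13 to 5.33). The lowest normal level was in enterocyte-led barcodes, 5.42 CPM (3.63 to 7.78), which were 426 of the 1366 normal epithelial barcodes and 1 of the 5326 polyp ones. Polyp T and innate lymphoid cells showed 5.64 CPM and plasma cells 5.09 CPM of Mmp15, against 0.342 and 0.431 CPM in the normal library. The gastric surface list in those classes went from 328 to 19635 CPM and from 114 to 10421.5 CPM.

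Mmp14 was 5.02 CPM (4.13 to 6.06) and 9.30 CPM (8.50 to 10.1) over kept barcodes, a relative ratio of 1.65, and 7.10 CPM (5.75 to 8.66) and 8.72 CPM (7.86 to 9.65) in epithelium, a ratio of 1.23 (0.979 to 1.55). It met the rule in none of the compared classes. Its level was higher in fibroblasts than in epithelium in both libraries, 49.6 CPM (19.9 to 102) and 66.6 CPM (48.8 to 88.9). Polyp macrophages had 32.5 CPM (21.8 to 46.7) of Mmp14 against 1 normal UMI. Crypt-led barcodes had 14.005 CPM (9.70 to 19.6) and 18.9 CPM (14.5 to 24.3), the 36 polyp tuft-led barcodes 20.6 CPM (9.40 to 39.0), and goblet-led barcodes 18.0 and 8.52 CPM, a relative ratio of 0.512 (0.297 to 0.924).

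Of the other Mmp genes, Mmp25, a lipid-anchored protease of leukocytes, was 0.228 CPM (0.0741 to 0.533) and 1.34 CPM (1.05 to 1.69) over kept barcodes, 5.23-fold higher relative to the median gene (2.14 to 16.6). In T and innate lymphoid cells it rose from 1.37 CPM (0.373 to 3.51), 4 UMIs, to 13.2 CPM (8.75 to 19.0), 28 UMIs, a ratio of 9.62 (3.36 to 37.7), and polyp dendritic cells had 31.8 CPM (17.4 to 53.4). The T and innate lymphoid marker list itself was 9534 CPM in the normal and 3304 CPM in the polyp class, the dendritic list 13.4 and 57.9 CPM, and the neutrophil list 2.74 and 31.0 CPM. Their part in the Mmp25 value was not tested. Mmp23, a small membrane-anchored member, was 1.64 CPM (1.15 to 2.28) and 3.69 CPM (3.19 to 4.24), a relative ratio of 1.999 (1.40 to 2.94), just under the limit. In epithelium Mmp23 was 1.11 CPM (0.620 to 1.83) and 2.73 CPM (2.26 to 3.27), 2.46-fold higher (1.43 to 4.54), with 5 of the 15 normal UMIs in 1 barcode. Gastric surface mucous barcodes had 28.5 CPM (11.4 to 58.6) of Mmp23 in the normal and 6.58 CPM (5.21 to 8.20) in the polyp library. The normal group, 10 barcodes, was too small to compare. In fibroblasts it was 99.2 CPM (54.2 to 166) and 73.9 CPM (55.0 to 97.1). Mmp19 was 0.411 CPM (0.188 to 0.780) and 1.23 CPM (0.951 to 1.56) over kept barcodes, 2.67-fold higher relative to the median gene (1.32 to 6.09). Its fibroblast levels were 42.5 CPM (15.6 to 92.5) and 50.7 CPM (35.3 to 70.5), a relative ratio of 1.29, so like Mmp2 it was past 2-fold over the library and not within its main class. Mmp28, the epilysin of epithelia, was 0.731 CPM (0.418 to 1.19) and 1.47 CPM (1.17 to 1.83), and 1.03 CPM (0.566 to 1.74) and 1.59 CPM (1.23 to 2.01) in epithelium. Mmp11, with 15 and 22 UMIs, was 0.685 and 0.410 CPM over kept barcodes and differed by less than 2-fold.

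The 4 inhibitors are encoded on different chromosomes, Timp1 at chrX:20870166-20874735, Timp2 at chr11:118301069-118355740, Timp3 at chr10:86300372-86349506 and Timp4 at chr6:115241892-115252205 (GRCm38), and they differed in the cells that held them. Timp1, an inducible secreted inhibitor, was 2.19 CPM (1.62 to 2.91) and 8.85 CPM (8.07 to 9.68) over kept barcodes, 3.60-fold higher relative to the median gene (2.67 to 4.95). In epithelium it rose from 1 UMI in 1366 barcodes, 0.0739 CPM (0.00187 to 0.412), to 376 UMIs in 5326 barcodes, 8.76 CPM (7.90 to 9.70), a ratio of 119 (21.2 to 4696). By epithelial group, the polyp levels were 20.5 CPM (15.8 to 26.0) in crypt-led, 13.2 CPM (10.9 to 15.8) in Clu-high, 13.1 CPM (10.5 to 16.1) in goblet-led, 10.2 CPM (7.60 to 13.4) in Brunner and pyloric gland and 1.9995 CPM (1.28 to 2.98) in gastric surface mucous barcodes. Polyp T and innate lymphoid cells had 3.29 CPM (1.32 to 6.78). The part of RNA from other cells in these levels was not tested. The crypt-led ratio was at least 16.6-fold and the goblet-led ratio at least 4.72-fold. Fibroblast Timp1 did not meet the rule, with 49.6 CPM (19.9 to 102) against 59.4 CPM (42.6 to 80.5), a relative ratio of 1.29 (0.574 to 3.42). The 4 normal mesothelial barcodes had 576 CPM (394 to 813), 21 of their 32 UMIs in 1 barcode, and without mesothelial barcodes the kept-barcode ratio was 10.7.

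Timp2, which also joins Mmp14 in activating Mmp2, was 23.8 CPM (21.8 to 25.9) and 19.0 CPM (17.9 to 20.2) over kept barcodes, a relative ratio of 0.712, but it differed by class. Fibroblasts fell from 1381 CPM (1194 to 1589) to 400 CPM (354 to 450), 3.20-fold relative to the median gene (2.65 to 3.86). Epithelium went from 3.70 CPM (2.74 to 4.87) to 7.34 CPM (6.55 to 8.20), a ratio of 1.99 (1.47 to 2.73), just under the limit, but 0.554 with barcodes averaged in place of summed. Within it, crypt-led barcodes rose from 0 to 38 UMIs, 11.8 CPM (8.34 to 16.2), at least 9.53-fold, and enteroendocrine barcodes from 1 UMI to 31, 3.57 CPM (0.0904 to 19.9) to 19.4 CPM (13.2 to 27.5), a relative ratio of 6.27 (1.05 to 256). Brunner and pyloric gland barcodes fell from 24.2 CPM (12.1 to 43.4) to 10.6 CPM (7.95 to 13.9), 2.58-fold relative to the median gene (1.22 to 5.00), with 7 of the 11 normal UMIs in 1 barcode. This group had a median of 22781 UMIs per barcode in the normal and 971 in the polyp library. Its marker list also summed to 47714 CPM in polyp macrophages, against 75478 CPM in polyp epithelium. The part of depth and of free gland RNA in that fall was not tested. T and innate lymphoid cells held 117 and 101 Timp2 UMIs, 40.1 CPM (33.1 to 48.0) and 47.5 CPM (38.7 to 57.7), a ratio of 1.19 (0.900 to 1.56), and macrophages had 199 CPM (118 to 314) and 140 CPM (117 to 167), a ratio of 0.705 (0.429 to 1.23). Both of those intervals include 1.

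Timp3, an inhibitor that binds to the matrix and also blocks aggrecan-cutting ADAMTS enzymes, was 16.9 CPM (15.2 to 18.7) and 25.3 CPM (24.0 to 26.7) over kept barcodes, a relative ratio of 1.33. Its highest levels were in vessels. The 7 polyp lymphatic endothelial barcodes had 248 UMIs, 4920 CPM (4327 to 5572), of which 131 lay in 1 barcode. Blood endothelium had 1134 CPM (586 to 1981) in 7 normal and 891 CPM (774 to 1021) in 60 polyp barcodes, and smooth muscle cells and pericytes, the cells in which Myh11 drives Cre, 549 CPM (375 to 775) in 13 and 604 CPM (500 to 724) in 38. Neither class had enough normal barcodes to be compared. Fibroblasts fell from 531 CPM (418 to 666) to 223 CPM (189 to 261), 2.21-fold relative to the median gene (1.65 to 2.93), and enteroendocrine barcodes from 186 CPM (139 to 244) to 38.7 CPM (29.7 to 49.7), 4.14-fold (2.81 to 6.09). Epithelium as a whole was 7.46 CPM (6.08 to 9.07) and 6.71 CPM (5.96 to 7.53), a ratio of 0.899 (0.715 to 1.14). Mixed barcodes, which entered no class, held 102 of 370 normal and 313 of 1358 polyp Timp3 UMIs. Timp4 had 0 normal UMIs in kept barcodes and 23 polyp UMIs, 0.429 CPM (0.272 to 0.643), at least 2.79-fold higher, 19 of them in epithelium.

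**Figure D4:**
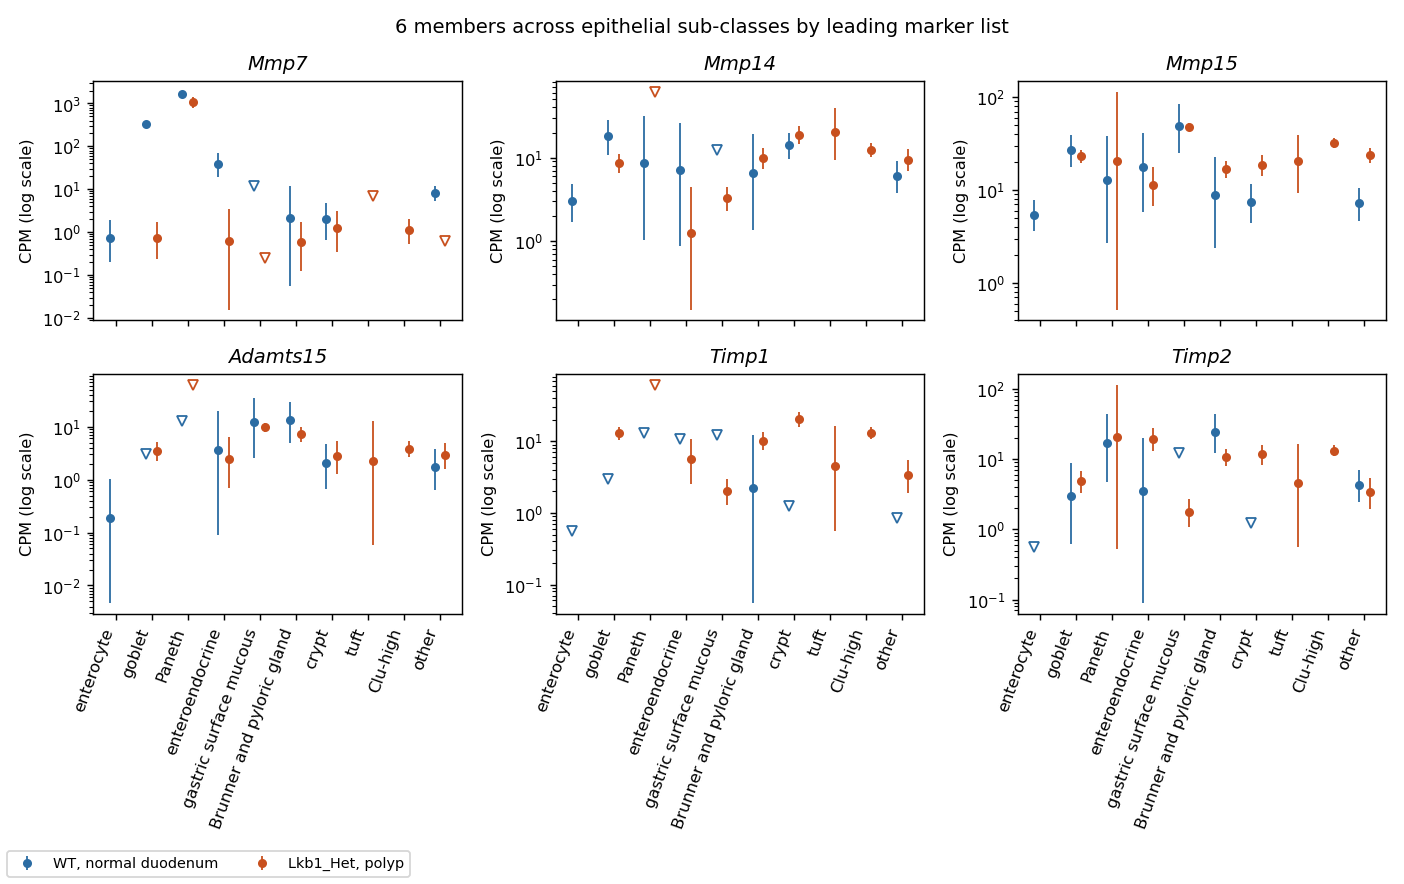
Levels in CPM (log axes) of 6 members in the epithelial groups, for groups of at least 10 barcodes in that library, with 95% counting intervals and open triangles at the 3-UMI limit for 0 UMIs. Mmp7 is high in normal Paneth-led and goblet-led barcodes, Mmp15 is at 48.8 and 48.3 CPM in gastric surface mucous barcodes of both libraries, and Timp1 is above the normal limits in polyp goblet-led and crypt-led barcodes.

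Among the ADAMTS genes, Adamts1, Adamts4, Adamts5, Adamts9 and Adamts15 encode the enzymes that cut aggrecan and versican. Adamts1 (chr16:85793827-85803113) and Adamts5 (chr16:85856173-85901828) lie near each other on the minus strand of chromosome 16. Adamts5 was 3.33 CPM (2.61 to 4.19) in the normal and 0.894 CPM (0.659 to 1.19) in the polyp library over kept barcodes, 4.18-fold lower relative to the median gene. In fibroblasts it fell from 475 CPM (368 to 603), 67 UMIs, to 29.0 CPM (17.7 to 44.7), 20 UMIs, 15.2-fold (9.09 to 26.4). All 67 normal UMIs lay in interstitial fibroblasts, where the fall was 21.2-fold (11.4 to 43.0), from 589 CPM (456 to 748) to 27.8 CPM (14.4 to 48.6). Polyp mast cells had 13 Adamts5 UMIs in 8 of 102 barcodes, 30.2 CPM (16.1 to 51.7), a level near that of polyp fibroblasts, while the 9 normal mast barcodes had 0 UMIs, which allows up to 490 CPM, and 5 of the 11 mast markers were at 0 in them.

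Adamts1 was 3.29 CPM (2.57 to 4.14) and 6.91 CPM (6.23 to 7.65) over kept barcodes, a relative ratio of 1.87 (1.45 to 2.45). Its fibroblast level was 283 CPM (202 to 386) and 180 CPM (149 to 214), a relative ratio of 0.684 (0.476 to 1.004), so the directions over the library and within fibroblasts were opposite and neither was past 2-fold. Smooth muscle cells and pericytes had 189 CPM (94.2 to 338) and 236 CPM (172 to 314), and polyp blood endothelium 200 CPM (147 to 267). Adamts4 was 0.0913 CPM (0.0111 to 0.330), 2 UMIs, and 0.764 CPM (0.548 to 1.04), 41 UMIs, a relative ratio of 7.45 (1.94 to 63.6). In fibroblasts it was 14.2 CPM (1.72 to 51.2) and 26.1 CPM (15.4 to 41.2), a relative ratio of 1.99 (0.476 to 17.7).

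Adamts15 lay mainly in epithelium in both libraries. It was 1.05 CPM (0.666 to 1.58) and 5.24 CPM (4.64 to 5.88) over kept barcodes, 4.44-fold higher relative to the median gene (2.90 to 7.12), and 1.63 CPM (1.02 to 2.46) and 5.59 CPM (4.91 to 6.35) in epithelium, 3.44-fold higher (2.22 to 5.59). In gastric surface mucous barcodes Adamts15 was 12.2 CPM (2.52 to 35.6) and 9.75 CPM (8.06 to 11.7), with too few normal barcodes to compare. It was 13.2 CPM (4.85 to 28.8) and 7.20 CPM (5.05 to 9.97) in Brunner and pyloric gland barcodes, which differed in depth as given above, a relative ratio of 0.483 (0.201 to 1.40). Normal enterocyte-led barcodes had 0.187 CPM. Adamts9 was 0.365 CPM (0.158 to 0.720) and 1.53 CPM (1.22 to 1.90) over kept barcodes, 3.73-fold higher relative to the median gene (1.80 to 8.92). In epithelium it went from 0 to 43 UMIs, 1.002 CPM (0.725 to 1.35), at least 4.52-fold. Its level was higher in polyp blood endothelium, 38.4 CPM (17.5 to 72.9), so the epithelium held most Adamts9 UMIs at a lower level per class.

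Adamts2 and Adamts14 encode enzymes that remove the amino-terminal propeptide of procollagen, and they had different sources. Adamts2 was 1.14 CPM (0.739 to 1.69) and 1.12 CPM (0.853 to 1.44) over kept barcodes, but in fibroblasts it fell from 135 CPM (81.0 to 210) to 59.4 CPM (42.6 to 80.5), 2.10-fold relative to the median gene (1.15 to 3.70). Adamts14 was 0.365 CPM (0.158 to 0.720) and 0.633 CPM (0.439 to 0.885), a relative ratio of 1.54 (0.702 to 3.86). Plasma cells held 6 of 8 normal and 27 of 31 polyp UMIs of Adamts14, 2.59 CPM (0.949 to 5.63) and 11.5 CPM (7.55 to 16.7), 2.79-fold higher (1.13 to 8.26) relative to a plasma-cell median gene that was itself 1.59 times as high in the polyp library. That call was lost when barcodes were averaged in place of summed (1.14) and when mixed barcodes were kept in their leading class (2.38). Adamts10, linked to fibrillin microfibrils, was 2.97 CPM (2.29 to 3.78) and 2.27 CPM (1.89 to 2.71) over kept barcodes, and in T and innate lymphoid cells it fell from 11.6 CPM (8.06 to 16.3) to 5.17 CPM (2.58 to 9.26), 2.25-fold (1.11 to 4.92). Its fibroblast levels were 56.7 CPM (24.5 to 112) and 46.3 CPM (31.7 to 65.4). Adamts6, with 4 and 31 UMIs over kept barcodes, was 0.183 and 0.578 CPM, a relative ratio of 2.82 (0.996 to 11.0) whose interval reached 1.

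Counted by class, epithelium had 13 members with enough UMIs to compare. Of these, 6 were higher in the polyp library (Mmp2, Mmp15, Mmp23, Timp1, Adamts9 and Adamts15) and 1 was lower (Mmp7), where 19.2% of 13988 genes were higher and 13.2% lower, and the members' median log2 ratio was 1.10 against 0.08 for all genes. Fibroblasts had 14, with 1 higher (Mmp10) and 5 lower (Mmp3, Timp2, Timp3, Adamts2 and Adamts5). There 9.45% of 5050 genes were higher and 6.69% lower, and the members' median log2 ratio was -0.41 against -0.11. The same 6 members were called in the same directions among interstitial fibroblasts alone (26 and 178 barcodes), where 8.70% of 3563 genes were higher and 8.67% lower. These barcodes are part of the 31 normal and 267 polyp fibroblast barcodes, so the calls are not separate from those of the whole class. Normal fibroblasts were few, and they also held more UMIs of the acinar list (4150 CPM against 511) and of the interstitial list (20326.5 against 10526.5). Their mesothelial list summed to 234 CPM against 10.1 and the fibroblast list itself to 24165 against 16719 CPM. Polyp fibroblasts held more of the gastric surface list (24032 against 248 CPM), the Brunner and pyloric gland list (40128 against 453 CPM), the enteroendocrine list (10056 against 56.7 CPM) and the smooth muscle list (895 against 205 CPM). The part of these differences in the fibroblast values was not tested.

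Macrophages had 5 comparable members, 2 higher (Mmp13, and Mmp12 with 0 normal UMIs and 1.59-fold at the 3-UMI floor) and 1 lower (Mmp9), against 6.12% and 4.48% of 4884 genes. T and innate lymphoid cells had 3, with Mmp25 higher and Adamts10 lower, against 14.6% and 10.2% of 9589 genes. Plasma cells had 2, with Adamts14 higher, against 11.0% higher and 6.95% lower of 6492 genes. B cells had no member with enough UMIs. Among epithelial groups, crypt-led barcodes had 5, with Mmp15, Timp1 and Timp2 higher (background 21.8% higher and 18.3% lower), enteroendocrine barcodes 3, with Timp2 higher and Timp3 lower (10.7% and 10.3%), Brunner and pyloric gland barcodes 6, with Timp2 lower (4.56% higher and 3.88% lower), and barcodes led by no epithelial list 6, with Mmp15 higher and Mmp7 lower (16.7% and 10.9%).

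**Figure D5:**
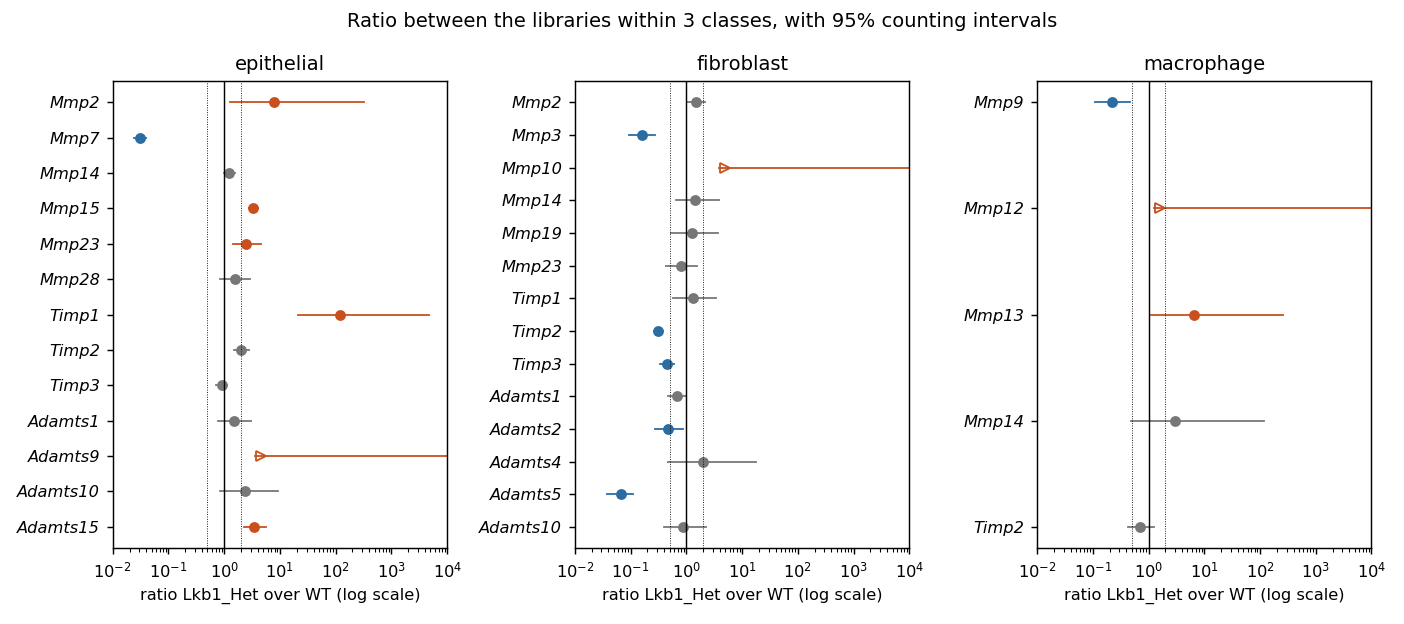
Ratio of Lkb1_Het over WT (log axis) for members compared in epithelium, fibroblasts and macrophages, with 95% counting intervals, relative to the median gene in fibroblasts. Open triangles give the lower bound where the normal library had 0 UMIs, dotted lines mark 2-fold either way, orange is higher, blue lower and grey neither. In fibroblasts 5 members lie left of the lower line, and in epithelium only Mmp7 does.

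Other genes of the protease network were counted by the same rule. Shares over all genes were as above, 19.2% higher and 13.2% lower in epithelium and 9.45% and 6.69% in fibroblasts, and nothing is read from a list whose share is near them. ADAM proteases, most of them membrane-bound enzymes that shed cell-surface proteins, were higher for 7 of 9 in epithelium, among them Adam28 (1.63 and 57.5 CPM), Adam10 (37.6 and 85.1 CPM) and Adam9 (8.87 and 49.8 CPM), and for 1 of 5 in fibroblasts, Adamdec1 (92.1 and 684 CPM), which is secreted. Of the plasminogen activation genes, which feed plasmin to Mmp precursors, 2 of 8 were higher in epithelium, a share near that of all genes, namely Plaur (17.6 and 75.1 CPM) and Hpn (2.14 and 24.9 CPM), and 1 was lower, Plgrkt (149 and 64.9 CPM). In fibroblasts Plat, the tissue plasminogen activator, fell from 255 to 44.9 CPM, the only 1 of 5 past the limit.

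Other metalloprotease inhibitors and cofactors were higher for 6 of 8 in epithelium, led by the broad protease inhibitor Mug1 (0.443 and 338 CPM) and by Thbs1 (36.3 and 125 CPM). Mug1 was also at 118 CPM in polyp T and innate lymphoid cells, a class that also held epithelial marker UMIs. In fibroblasts 2 of 8 were higher, Thbs1 (326 and 643 CPM) and Mug1 (0 UMIs and 113 CPM), and 1 was lower, Pcolce (503 and 182 CPM), which helps procollagen to be processed. The meprins, brush-border metalloproteases, fell in epithelium: Mep1b from 90.2 to 0.0932 CPM and Mep1a from 4.43 to 0.0233 CPM, 2 of 3 in that list, in an epithelium with 1 enterocyte-led barcode. Of the ADAMTS-like genes, Thsd4 (0.517 and 9.18 CPM) and Adamtsl3 (0 UMIs and 1.19 CPM) were higher and Adamtsl5 (17.7 and 0.699 CPM) lower in epithelium, among 4.

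Matrix substrates of these enzymes were compared for 10 genes in fibroblasts. Tnc rose from 7.08 CPM, 1 UMI, to 251 CPM, while Fbn1 fell from 687 to 126 CPM and Nid1 from 673 to 148 CPM. The list's median log2 ratio was -0.49 against -0.11 for all genes. Dcn, Lum and Bgn of this list were also markers that set the fibroblast class, and the marker list itself went from 24165 to 16719 CPM. The median is therefore not independent of the class rule. Cysteine cathepsins, the lysosomal proteases, were listed with their inhibitors Cst3 and Cstb. In fibroblasts 1 of 10 genes of this list was past the limit, near the share of all genes. In epithelium 5 of 10 were. The 3 higher were Ctsl (40.8 and 201 CPM), Ctsf and the inhibitor Cst3 (205 and 480 CPM), and 2 were lower, such as Ctss (60.8 and 9.44 CPM).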

How the data were processed

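Dissociated cells were profiled with a 3′ v3 droplet kit, 1 library per group. Reads were aligned and counted by the authors, with Cell Ranger 3.0.0 and mm10 per the submitters' processing notes and Cell Ranger 5.0.0 per the file headers. The deposited values are counts of UMIs per gene and barcode, not normalized.

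From these counts, barcodes with at least 500 UMIs, 250 genes and at most 25% mitochondrial UMIs were kept. Each took the class whose markers led over the library-wide share, with at least 3 UMIs from at least 2 markers. Barcodes with markers of separate lineages were set aside as mixed, and no doublet caller was run. Acinar and erythroid classes needed markers at 5% or more of a barcode's UMIs, and mesothelial markers were allowed beside other lineages; both were set after seeing the barcodes. UMIs were summed per class as CPM with exact Poisson intervals, and ratios of Lkb1_Het over WT had exact conditional binomial intervals, at 95%. A gene was compared in a class with at least 20 UMIs over both libraries and 20 barcodes in each, and called at 2-fold with an interval clear of 1; at 0 UMIs in a library the interval alone decided. Where a class's median gene differed by more than 0.1 (log2), ratios were taken relative to it. A library at 0 UMIs was set to a floor of 3 UMIs for values given as at least a fold. That floor does not give a 95% limit. For Mug1 in fibroblasts it gave 5.74-fold where the lower end of the interval was 4.56. With 1 library per group no test was made.

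The members and gene lists were chosen with earlier results of these data known. Full values were given for the 12 members with most UMIs and for each member called over kept barcodes or in a class, and of related lists at most 4 called genes each. Other filters, class rules, totals and weightings were tried. The scripts were tested on simulated data. Positions are from GENCODE M21 (GRCm38) and promoters from RefSeq (GRCm38.p6). Python 3.11.15, numpy 2.4.6, scipy 1.17.1, pandas 2.3.3 and matplotlib 3.10.9 were used.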

Additional observations from a re-analysis of the deposited data

Results flagged for a closer look

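Timp2 was called in opposite directions in different cells. The ratio of Lkb1_Het over WT was 0.312 in fibroblasts, 0.318 in interstitial fibroblasts and 0.387 in Brunner and pyloric gland barcodes, against 6.27 in enteroendocrine barcodes and at least 9.53 in crypt-led barcodes. Interstitial fibroblasts are part of the fibroblast class. In Brunner and pyloric gland barcodes 7 of the 11 normal UMIs lay in 1 barcode, and the depth of these barcodes differed between the libraries. The enteroendocrine ratio has the wide counting interval given above. The difference between these classes was not tested, since each group is 1 library.

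The barcodes left out by the filters, 6698 in the normal and 5867 in the polyp library, were not used in the comparisons and also held members. There 12 members had enough UMIs, with 8 higher and 1 lower in the polyp library, where 17.9% of genes were higher and 17.3% lower. Mmp15 was 30.1 CPM in the polyp and 6.87 CPM in the normal left-out barcodes, Adamts15 5.76 and 1.90 CPM, Timp3 6.77 and 3.52 CPM, and Timp2 4.85 and 1.56 CPM. Adamts1 was 3.74 and 1.67 CPM, Mmp23 2.53 and 0.577 CPM, and Mmp2 1.82 and 0.404 CPM. Timp1 was 2.12 CPM in the polyp library and at 0 UMIs in the normal one. Mmp7 was the lower member, at 0.404 CPM in the polyp against 6.58 CPM in the normal left-out barcodes.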

How the results depend on the processing

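No paired analysis was possible because each group is 1 library, and for the same reason no library could be left out. The 34 called results examined were those over kept barcodes and in epithelium, fibroblasts, macrophages, T and innate lymphoid cells and plasma cells. Calls in epithelial groups, such as goblet-led or crypt-led barcodes, and in interstitial fibroblasts were not among them. Settings that left a value as it was, and the looser 1.5-fold limit, cannot remove a call and were not counted. Of the other 262 values, 15 lost the call in the same direction and 1 reversed. The reversed one was Mmp3 over kept barcodes, with a ratio of 1.24 as the mean of per-cell CPM; the cause was not tested. The count of lower members over kept barcodes was 6 with at least 1000 UMIs, 500 genes and at most 10% mitochondrial UMIs (3 as reported), and that of lower members in macrophages was 4 with mixed barcodes kept (1 as reported); the cause was not tested. The mean of per-cell CPM gave no ratio where the normal library had 0 UMIs, and macrophages gave no value under the stricter barcode filter, which left fewer than 20 normal barcodes. The number of higher members over kept barcodes ranged from 10 to 16 (12 as reported), of higher members in epithelium from 4 to 9 (6), and of lower members in fibroblasts from 4 to 5 (5). Calls were lost for Mmp2 (1.70) and Mmp19 (1.64) over kept barcodes, Mmp23 in epithelium (1.80) and Adamts10 in T and innate lymphoid cells (0.498) under the stricter filter, and for Adamts2 in fibroblasts with a stricter marker rule (0.536) or no mitochondrial limit (0.546). The Adamts10 call was also lost with the mean of per-cell CPM (0.501). Calls resting on 25 to 31 normal barcodes, as in macrophages and fibroblasts, are limited by that number and by their UMIs.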
